A study of Sus scrofa with 6 samples.

Results

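GRB10, EGFR, HGF, GAB2 and ABL2 are 5 genes of growth factor receptor signalling, taken by symbol from a table of 1780 pig genes. All 5 were found, had 3114 to 14496 reads in total and passed the filter on low counts, as did 807 genes in all. RNA was measured in whole pig embryos (Landrace x Yorkshire x Duroc cross) at embryonic day 21. The 3 untreated controls had genomes of both parents. The 3 parthenotes grew from oocytes that electric stimulation had activated, with no sperm involved, and so lacked a paternal genome. They were placed into the oviducts of 2 surrogate gilts of the same stock, and the labels do not say which embryos shared a gilt. How the controls were conceived is not described in the labels. Nor do they say if embryos of 1 group were littermates, so p-values measure only the spread between these samples. Differences in conception, dam, sex or exact stage run with the groups and cannot be told apart from the missing paternal genome.

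A growth factor such as HGF or a member of the EGF family binds a receptor tyrosine kinase on the cell surface, and the receptor then phosphorylates itself. Adaptor proteins dock on the phosphorylated receptor and pass the signal to the RAS, PI3-kinase and cytoskeletal pathways, or restrain it. HGF, also called scatter factor, is typically made by mesenchymal cells and acts on epithelial cells through the receptor MET. EGFR binds EGF and its relatives and drives epithelial growth. GRB10 binds the insulin and IGF receptors and limits their signal, and in the mouse it is an imprinted gene, expressed from the maternal copy in most tissues and from the paternal copy in neurons. GAB2 is a docking scaffold for PI3-kinase and the phosphatase PTPN11, and ABL2 is a cytoplasmic tyrosine kinase that acts on the actin cytoskeleton. The comparison asked whether these genes differed in embryos with maternal chromosomes only.

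None of the 5 genes passed the test between parthenotes and controls. GRB10 and EGFR had nearly the same group means, HGF was lower in all 3 parthenotes than in any control, and GAB2 and ABL2 had higher means in parthenotes, with overlapping embryos. By edgeR's quasi-likelihood method, Benjamini-Hochberg adjusted over all 807 genes, 0 of the 5 were called at an adjusted p of 0.05, and 0 had an unadjusted p under 0.05. Across all tested genes 5.20% were called, 1.61% as higher and 3.59% as lower in parthenotes. DESeq2 called 0 of the 5, with 1, ABL2, at an unadjusted p under 0.05, and limma-voom called 0, with 0 at an unadjusted p under 0.05. The median log2 fold change, parthenote minus control, was 0.01 over the 5 genes and 0.02 over all tested genes. The 5 genes thus gave no sign of a shared direction, with 3 above 0 and 2 below.

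Levels are given as CPM, counts per 1000000 counted reads after TMM scaling. The table used here covers chromosome 9, where 686 of its 688 genes with a known position lie, so a CPM is a share of those reads, and transcript lengths were not used, so CPM values are not compared between genes. Each library held 1193714 to 1484193 reads. The 5 genes had 407 to 2795 reads in each library, where counting error alone is 4.96% at the lowest count and 1.89% at the highest. Control 1 and parthenote 1 stood apart most from the other libraries of their groups, with a chi-square per degree of freedom of 52.8 to 143 against them, while control 2 and 3 differed by 6.98 and parthenote 2 and 3 by 21.1. PEG10, a paternally expressed gene, had 32113 to 45134 reads in controls and 15 to 36 in parthenotes, and SGCE, its paternally expressed neighbour, had 1321 to 1428 and 14 to 55. The libraries thus match their labels.

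**Figure D1:**
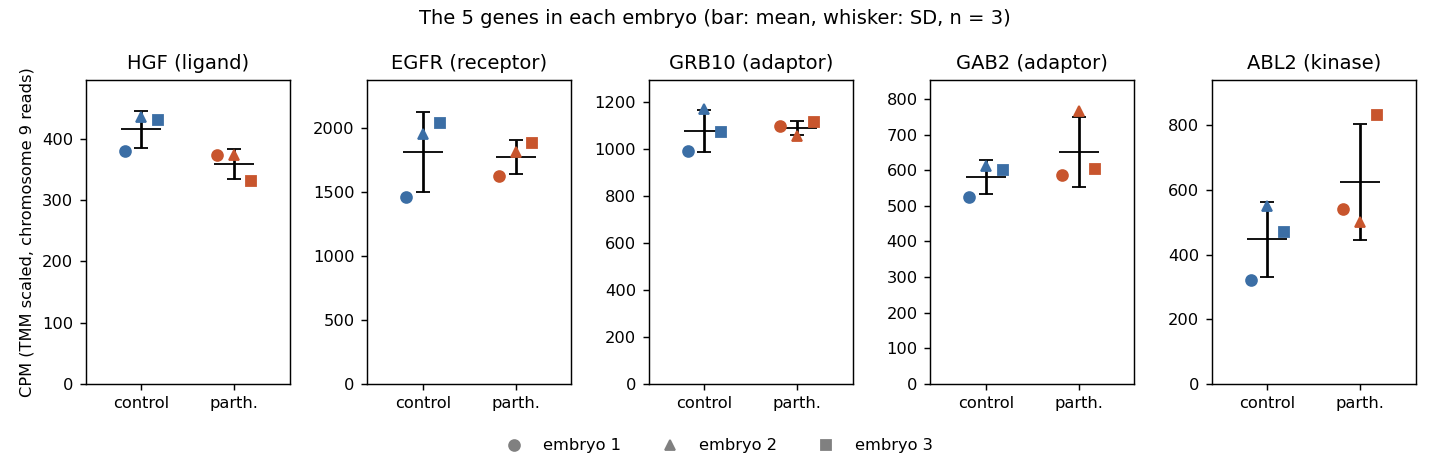
CPM of each gene in each embryo, with controls in blue, parthenotes in orange, a bar at the mean and whiskers of 1 SD (n = 3). The 3 HGF values of parthenotes lie below the 3 of controls, from 331 to 373 against 381 to 435 CPM, and parthenote 3 stands above the other embryos for ABL2 at 830 CPM.

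HGF (ENSSSCG00000015403), the ligand, lies at positions 98437771 to 98513573 of chromosome 9 in Sscrofa11.1. It was at 381, 435 and 431 CPM in control 1, 2 and 3, and at 373, 373 and 331 CPM in parthenote 1, 2 and 3. Every parthenote was below every control, though parthenote 1 and 2 were close to control 1. Groups without overlap were found for 28.0% of all tested genes, so the separation of 1 gene of 5 is near that background. The means were 415 ± 30.3 and 359 ± 24.2 CPM (SD, n = 3 each). The log2 fold change of HGF was -0.21 ± 0.11 (SE), with a 95% interval of -0.47 to 0.05 and an adjusted p of 0.339 in edgeR's test. On the linear scale the interval runs from 0.721 to 1.03 times the control level. A fall of HGF to 0.721 of the control level thus remained within the interval, and the test did not show that the groups were alike. In whole embryos, fewer cells that express a gene and less RNA per cell cannot be told apart.

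EGFR (ENSSSCG00000022126), the receptor, lies at 139302410 to 139474632. Its values were 1455, 1948 and 2035 CPM in control 1, 2 and 3, and 1626, 1808 and 1881 CPM in parthenote 1, 2 and 3. Control 1 was the lowest and control 3 the highest of the 6 embryos, so all parthenotes fell within the range of the controls. The group means were 1813 ± 313 and 1772 ± 131 CPM (SD, n = 3 each), and the log2 fold change was -0.03 ± 0.13 (SE), with a 95% interval of -0.33 to 0.26 (edgeR adjusted p = 0.921). The control mean of EGFR rested on control 1: without it the log2 fold change was -0.17 (edgeR adjusted p = 0.277, with 0.277 to 0.974 over 13 alternatives), and without control 2, control 3 or parthenote 1 it was 0.02, 0.06 and 0.03.

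GRB10 (ENSSSCG00000015631), the adaptor that is imprinted in the mouse, lies at 136580363 to 136742552. It was at 989, 1167 and 1072 CPM in control 1, 2 and 3, and at 1095, 1054 and 1112 CPM in parthenote 1, 2 and 3. The 3 parthenotes all lay between the lowest and the highest control. The means were 1076 ± 89.0 and 1087 ± 29.9 CPM (SD, n = 3 each), a log2 fold change of 0.01 ± 0.08 (SE) with an adjusted p of 0.949 in edgeR's test. The sign of this value turned with library totals as the scaling, without a filter on low counts, and without control 1 or parthenote 3. The 95% interval of -0.18 to 0.21, or 0.884 to 1.15 times the control level, did not reach a 2-fold rise, a log2 fold change of 1. A whole-embryo read count sums all transcripts of GRB10 from both copies of the gene, so transcripts from different promoters or copies were not measured apart. Imprinting of GRB10 in these pig embryos was not tested.

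GRB10 had the narrowest range of the 5 genes over the 6 embryos. Its coefficient of variation (CV), the SD as a percentage of the mean, was 2.75% among parthenotes, the lowest of the 5. Among controls its CV of 8.27% was close to that of HGF (7.28%) and GAB2 (8.24%). The parthenote CV of GRB10 stood at the 5.45 percentile of the tested genes, which differ in depth. Its highest embryo was 1.18 times its lowest, against 1.31 for HGF, 1.40 for EGFR, 1.46 for GAB2 and 2.59 for ABL2.

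GAB2 (ENSSSCG00000014891), the docking adaptor, lies at 12663658 to 12851423. Control 1, 2 and 3 were at 525, 613 and 601 CPM, and parthenote 1, 2 and 3 at 587, 765 and 602 CPM. Parthenote 2 was the highest embryo, and the other parthenotes lay within the range of the controls. The means were 580 ± 47.8 and 651 ± 98.8 CPM (SD, n = 3 each). The log2 fold change of GAB2 was 0.17 ± 0.13 (SE), with a 95% interval of -0.12 to 0.46 (edgeR adjusted p = 0.491). Parthenote 2 carried much of the difference: without it the log2 fold change was 0.04, and without control 1 it was 0.10.

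ABL2 (ENSSSCG00000024674), the cytoplasmic kinase, lies at 120888891 to 120984724. It was at 321, 550 and 471 CPM in control 1, 2 and 3, and at 542, 502 and 830 CPM in parthenote 1, 2 and 3. Parthenote 3 was 1.53 times the next parthenote and control 1 was well below the other embryos, while the remaining 4 embryos lay between 471 and 550 CPM. The means were 447 ± 117 and 625 ± 179 CPM (SD, n = 3 each). The log2 fold change of ABL2 was 0.48 ± 0.24 (SE), the largest of the 5 genes, with a 95% interval of -0.07 to 1.04 (edgeR adjusted p = 0.307). This is 1.40-fold, with an interval from 0.953 to 2.05 times the control level, so in this unblocked fit neither an equal level nor a doubling lay outside it.

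The difference in ABL2 was smaller than the spread between embryos could resolve. Its CV was 26.0% among controls and 28.7% among parthenotes, at the 84.4 and 87.0 percentiles of the tested genes. Without parthenote 3 the log2 fold change was 0.21 (edgeR adjusted p = 0.672), and without control 1 it was 0.29 (edgeR adjusted p = 0.491). The adjusted p ran from 0.197 to 0.672 over 13 alternatives, and 4 of these gave an unadjusted p under 0.05. With the replicate number as a block the log2 fold change was 0.48 (edgeR adjusted p = 0.197), with a 95% interval of 0.01 to 0.95. That interval no longer covered 0 or a 2-fold rise, and ABL2 was still not called. The labels do not state the pairing that this block assumes.

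**Figure D2:**
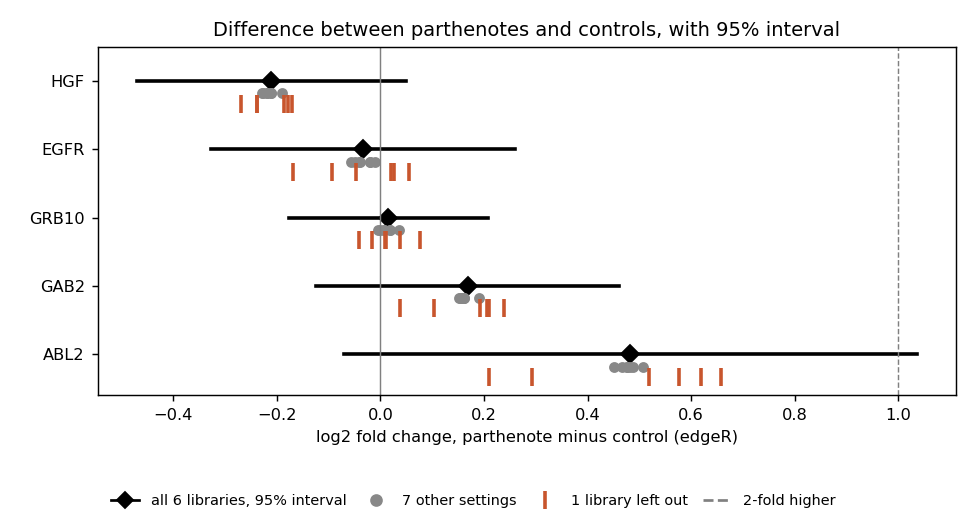
Log2 fold change of each gene, parthenote minus control, as a diamond with its 95% interval from edgeR. Grey circles mark 7 other settings and orange ticks the 6 fits with 1 library left out. All 5 intervals cover 0, and the interval of ABL2, up to 1.04, is the only one of the 5 that reaches the dashed line of a 2-fold rise.

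Control 1 was the lowest of the 3 controls for all 5 genes, and the lowest of the 6 embryos for 4 of them, all but HGF. Among all tested genes control 1 was the lowest control for 44.1% and the lowest embryo for 27.3%. In control 1 the most abundant gene of the table took 20.8% of the reads, against 8.29% and 8.47% in control 2 and 3 and 15.4% to 19.1% in parthenotes. The part of this difference in composition in the values of the 5 genes was not tested. Parthenote 3 was the highest embryo for 1 of the 5, ABL2, and for 17.8% of the tested genes.

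The wider pathway was described with 9 lists of ligands, receptors, adaptors, kinases, RAS-MAPK and PI3-kinase components, negative regulators, activating proteases and early response genes. Apart from the 5 genes, 18 of the 418 listed genes were in the table and 15 were tested, since the lists cover the whole genome and the table does not. Receptors such as MET, INSR and IGF1R, the partners of HGF and GRB10, were not analysed here. In edgeR's test 1 of the 15 fell and 0 rose (6.67% called, against 5.20% of all tested genes), and 4 had an unadjusted p under 0.05, against 21.7% of all tested genes. Of the 15, 10 had a log2 fold change above 0 and 5 below, with a median of 0.12, against 0.02 over all tested genes.

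ST14 was the gene that fell. It encodes matriptase, a membrane serine protease of epithelial cells that can activate the precursor of HGF. ST14 was at 356, 438 and 401 CPM in control 1, 2 and 3, and at 149, 157 and 147 CPM in parthenote 1, 2 and 3. All parthenotes were well below all controls, and the parthenotes lay close together. The log2 fold change was -1.40 ± 0.13 (SE), or 0.379 of the control level, with a 95% interval of -1.68 to -1.11 (edgeR adjusted p = 1.36e-04), and the call held in each of the 13 alternatives.

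ST14 is also a marker of epithelium. Of the 15 listed epithelial markers 3 were tested. Of these, 2 were called lower, beside 3.59% of all tested genes, and 1 had a log2 fold change above 0 and was not called. Only the 2 that fell, ST14 and POU2F3, a transcription factor of epidermis, are reported here, so their values do not describe the list as a whole. POU2F3 was at 85.1 to 105 CPM in controls and 4.59 to 10.8 CPM in parthenotes, and fell by 3.80 in log2 units (edgeR adjusted p = 5.89e-05). The part of epithelial cell number in the fall of ST14 was not tested. TMPRSS13, another membrane serine protease that can activate HGF, was at 14.2 CPM in controls and 21.1 CPM in parthenotes on average, with a log2 fold change of 0.56 ± 0.35 (edgeR adjusted p = 0.402). The fall of ST14 was thus not accompanied by a called change in HGF or in TMPRSS13.

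**Figure D3:**
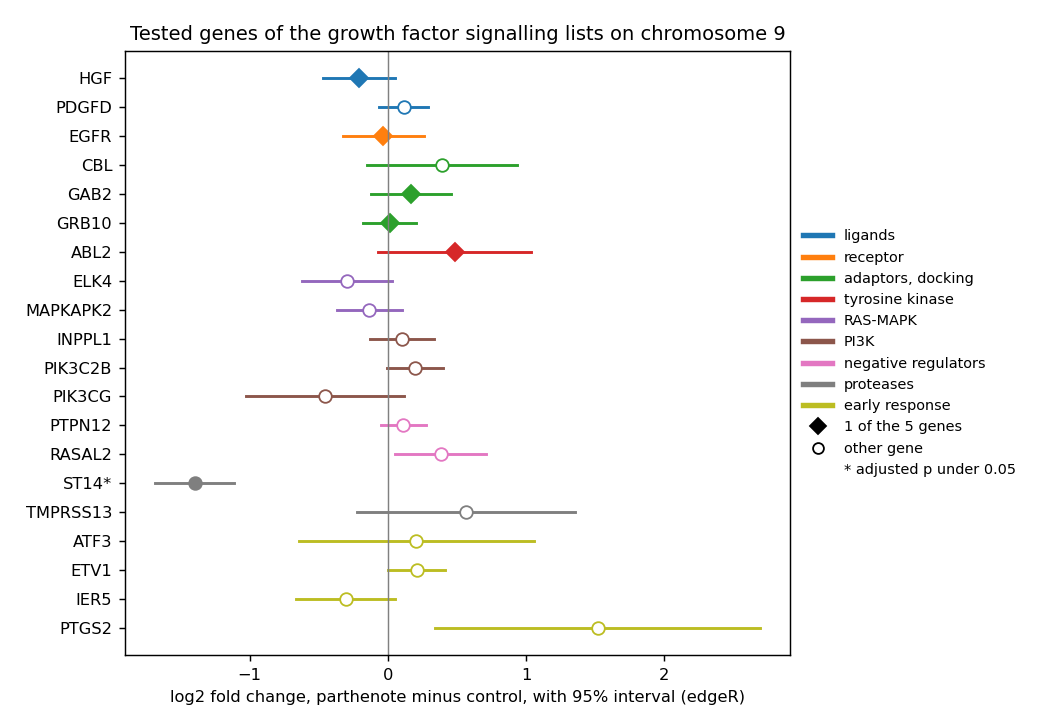
Log2 fold change with 95% interval, parthenote minus control, of the 20 tested genes of the signalling lists, coloured by list, with diamonds for the 5 genes. ST14, at -1.40, is the only one of the 20 past an adjusted p of 0.05.

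The other ligand and adaptor measured beside the 5 genes did not pass the test. PDGFD, a ligand of the PDGF receptors, was at 921 ± 40.8 CPM in controls and 998 ± 33.3 CPM in parthenotes (SD, n = 3 each), a log2 fold change of 0.12 ± 0.08. CBL, the ubiquitin ligase that marks activated EGFR for degradation, was at 775, 1405 and 1586 CPM in control 1, 2 and 3. In parthenote 1, 2 and 3 it was at 1410, 1666 and 1864 CPM. Control 1 was again far below the other embryos, and the log2 fold change of CBL was 0.39 ± 0.24 (edgeR adjusted p = 0.402). Without control 1 it was 0.14, and without control 3 it was 0.59.

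Downstream components likewise gave no call. Of the RAS-MAPK genes, MAPKAPK2, a kinase downstream of p38, had a log2 fold change of -0.13 ± 0.11, and ELK4, a transcription factor that responds to ERK, one of -0.30 ± 0.14. The kinase gene PAK1 had 16 reads over all libraries and was not tested. Of the PI3-kinase genes, INPPL1, a lipid phosphatase, had a log2 fold change of 0.10 ± 0.10 and PIK3CG, a catalytic subunit found mainly in blood cells, one of -0.45 ± 0.25. PIK3C2B, a class II PI3-kinase, was higher in all 3 parthenotes than in any control, with a log2 fold change of 0.20 ± 0.09 (edgeR adjusted p = 0.238).

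Both tested genes of the list of negative regulators had higher values in all 3 parthenotes than in any control, and neither passed the test. CBL and GRB10, listed with the adaptors, also restrain receptor signals, and for both of them the groups overlapped. Groups without overlap, in either direction, made up 28.0% of all tested genes. RASAL2, a GTPase-activating protein that switches RAS off, was at 604 ± 124 CPM in controls and 787 ± 30.7 CPM in parthenotes (SD, n = 3 each), a log2 fold change of 0.38 ± 0.15 (edgeR adjusted p = 0.162) that was 0.23 without control 1. PTPN12, a tyrosine phosphatase, had a log2 fold change of 0.11 ± 0.07 (edgeR adjusted p = 0.415).

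Early response genes, which growth factors switch on, did not pass either. PTGS2, the inducible prostaglandin synthase, had a log2 fold change of 1.52 ± 0.50, the largest positive value of the lists, with an adjusted p of 0.144 in edgeR's test. It was at 108, 94.9 and 79.3 CPM in control 1, 2 and 3, and at 122, 498 and 188 CPM in parthenote 1, 2 and 3. Parthenote 2 was far above the others, and parthenote 1 was close to control 1. PTGS2 passed without parthenote 1, where its log2 fold change reached 1.87 (edgeR adjusted p = 0.0292, with 0.0292 to 0.399 over 13 alternatives), and its value dropped to 0.73 without parthenote 2. ETV1, an ETS factor downstream of FGF receptors, had a log2 fold change of 0.21 ± 0.09 (edgeR adjusted p = 0.216). Its values were higher in all 3 parthenotes than in any control. ATF3 had a log2 fold change of 0.21 ± 0.37 that rested on parthenote 2, at 440 CPM. Parthenote 1 and 3, at 166 and 152 CPM, were below the controls, at 210 to 224 CPM. IER5 had a log2 fold change of -0.30 ± 0.16. MMP1 and MMP13 had 43 and 26 reads over all libraries and were not tested.

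The 5 genes are spread over 126.8 Mb of chromosome 9. GRB10 and EGFR are the nearest pair, 2.56 Mb apart. Genes with a RefSeq position within 1 Mb of each were set beside it, since imprinted genes often lie in clusters. Around GRB10, 4 neighbours were tested and 0 passed edgeR's test, with 1 at an unadjusted p under 0.05. Of all tested genes 5.20% passed and 21.7% had such an unadjusted p.

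DDC, which encodes the dopamine-forming enzyme and is imprinted in the mouse heart, lies 9.14 kb from GRB10. It was at 867 CPM in controls and 649 CPM in parthenotes on average, a log2 fold change of -0.42 ± 0.27 (edgeR adjusted p = 0.415). FIGNL1, a DNA repair gene, had a log2 fold change of -0.03 ± 0.11. IKZF1, a transcription factor of blood cells, had one of -0.54 ± 0.18 (edgeR adjusted p = 0.138). The log2 fold changes of the 4 neighbours ran from -0.54 to 0.21, with a median of -0.22, while that of GRB10 itself was 0.01.

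EGFR had 1 tested neighbour, VSTM2A, an adipogenesis-related secreted protein gene, with a log2 fold change of 0.39 ± 0.14 (edgeR adjusted p = 0.145). Near HGF, CACNA2D1, a calcium channel subunit, had a log2 fold change of -0.02 ± 0.08, and SEMA3C, a guidance semaphorin, one of 0.20 ± 0.11. Neither passed.

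Around GAB2, beside 3.59% of all tested genes called lower, 1 of 10 tested neighbours fell. This was NDUFC2, a subunit of respiratory complex I, named after its values were seen, with a log2 fold change of -0.66 ± 0.12 (edgeR adjusted p = 0.0178). The closest, USP35, a deubiquitinase gene whose span ends 0.7 kb from GAB2, had a log2 fold change of -0.15 ± 0.15. NARS2, a mitochondrial tRNA synthetase, and TENM4, a teneurin, lie on the other side and had log2 fold changes of -0.12 ± 0.11 and 0.35 ± 0.30. KCTD21 and ALG8 had values of -0.16 ± 0.16 and -0.38 ± 0.13. Of the 10, 8 were below 0, against 384 of all 807 tested genes, while GAB2 was above 0. The kit does not mark the strand, so reads in the short gap between USP35 and GAB2 could not be assigned by direction.

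Around ABL2, 13 tested neighbours are reported here, and, beside 3.59% of all tested genes called lower, 1 of them fell. This was TOR1AIP2, a nuclear envelope protein gene named after its values were seen, with a log2 fold change of -0.51 ± 0.12 (edgeR adjusted p = 0.0387). The nearest gene, TOR3A, a torsin ATPase gene 2.97 kb from ABL2, had a log2 fold change of -0.15 ± 0.16. FAM20B, a xylose kinase gene of proteoglycan assembly, had one of -0.36 ± 0.11, and SOAT1, a cholesterol acyltransferase gene, one of -0.24 ± 0.12. ABL2 at 0.48 thus lay above these 13 neighbours, whose log2 fold changes ran from -0.51 to 0.41.

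**Figure D4:**
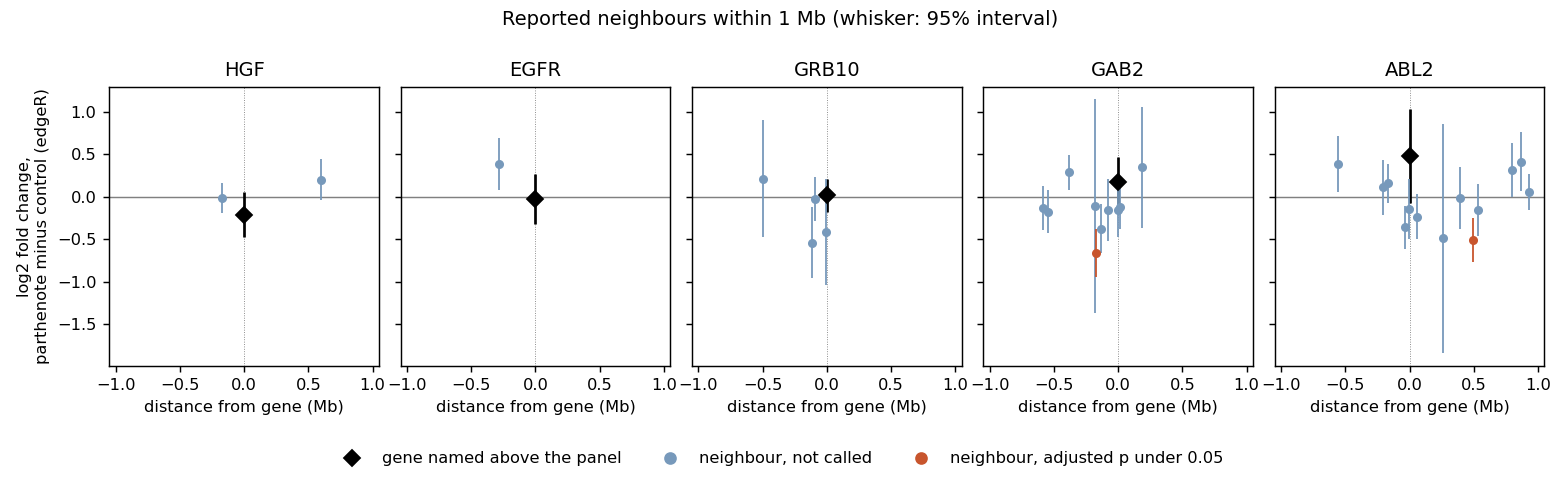
Log2 fold change with 95% interval of the reported genes within 1 Mb of each of the 5 genes, against distance in Mb. The black diamond is the gene named above the panel, and orange marks the 1 neighbour of GAB2 and the 1 neighbour of ABL2 that fell.

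Each gene was then compared with the other 656 tested genes that have a symbol by the Pearson correlation of log2 CPM over the 6 embryos. These values are descriptive, since 6 libraries share depth, composition and the difference between groups. ABL2 was most like RALGPS2 (r = 0.993), a gene for a Ral exchange factor that is also its neighbour, 164 kb away, and then like SIK2 (r = 0.956), a salt-inducible kinase. RALGPS2 was at 1132, 1354 and 1324 CPM in control 1, 2 and 3, and at 1349, 1340 and 1562 CPM in parthenote 1, 2 and 3. It was thus lowest in control 1 and highest in parthenote 3, as ABL2 was, over a narrower range. Its log2 fold change was 0.16 ± 0.10 (edgeR adjusted p = 0.413).

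HGF was most like FOLR2, a folate receptor of macrophages (r = 0.974), and IKZF1 (r = 0.936). FOLR2 was at 439, 483 and 483 CPM in control 1, 2 and 3, and at 400, 393 and 348 CPM in parthenote 1, 2 and 3. As for HGF, parthenote 3 was the lowest and control 1 the lowest control. FOLR2 had a log2 fold change of -0.30 and did not pass (edgeR adjusted p = 0.162).

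EGFR was most like SLC41A1, a magnesium transporter gene (r = 0.978), and THSD7A, a thrombospondin-domain gene (r = 0.976). GAB2 was most like OPCML, a neural cell adhesion gene (r = 0.964), and MEOX2, a homeobox gene of mesoderm (r = 0.949). GRB10 had the weakest likeness: TRIM6 was the 1 gene with an r above 0.9, followed by NUP98 (r = 0.879), where the other 4 genes had 7 to 14 genes above 0.9.

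**Figure D5:**
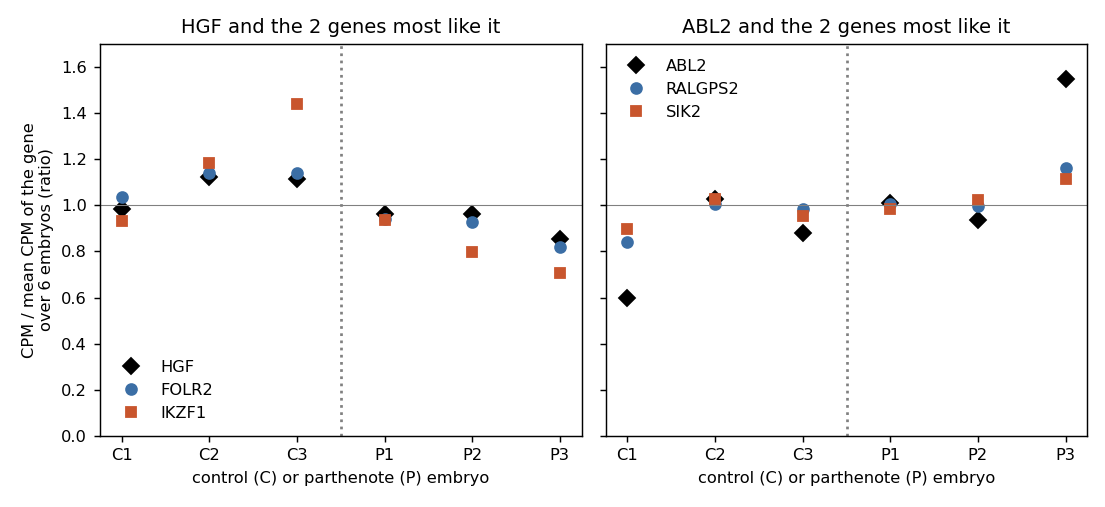
CPM of HGF (left) and ABL2 (right) and of the 2 genes most like each, divided by the gene's mean over 6 embryos. For ABL2 and RALGPS2 control 1 is lowest and parthenote 3 highest, and HGF and FOLR2 are lowest in parthenote 3.

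Markers of the cell types a whole embryo holds were read in the same libraries. COL1A2, the 1 measured mesenchymal marker of 15, was at 43436 to 46591 CPM in controls and 40685 to 47881 CPM in parthenotes. The 4 measured neural markers of 16 summed to 5878 to 7247 CPM in controls and 7998 to 9633 CPM in parthenotes. NRCAM and MAP6 among them rose by 0.64 and 0.55 (edgeR adjusted p = 0.0213 and 0.00900). HBB, the 1 measured red cell marker of 12, was at 873 to 2065 CPM in controls and 102 to 575 CPM in parthenotes. It was not called (edgeR adjusted p = 0.189), and this 1 gene does not describe red cells as a whole. The 4 endothelial markers of 13 summed to 4482 to 4878 CPM in controls and 4355 to 4610 CPM in parthenotes. ETS1, the most abundant of them, had a log2 fold change of -0.01, ROBO4 0.14 and FLI1 -0.16. That of ESAM was -0.42 (edgeR adjusted p = 0.0677), and none of the 4 was called. The 3 liver and yolk sac markers of 15 summed to 29039 to 33808 CPM in controls and 26128 to 51368 CPM in parthenotes. That last sum is mostly APOA1 (log2 fold change 0.11), while APOC3 of the same list rose by 1.08 (edgeR adjusted p = 0.0178). The 2 muscle markers of 12 lay on opposite sides of 0, with log2 fold changes of 0.15 for MYOG and -0.38 for CRYAB, and neither passed. Of the 12 leukocyte markers 2 were in the table: CD3E had 0 to 3 reads per library and CD3D had 0 in all. These 2 do not describe leukocytes as a whole, and FOLR2, the folate receptor of macrophages, was at 348 to 483 CPM. PGR of the uterine list had 0 to 3 reads. The part of cell composition in the values of the 5 genes was not tested.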

How the data were processed

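Total RNA of 6 whole embryos was treated with DNase and made into TruSeq v.2 libraries, per the labels' protocols. The submitters' processing notes name HISAT2 2.1.0, SAMtools 1.9 and the build Sscrofa11.1. No counting tool or annotation release is named in the sources used here. Per gene, the deposited table gives the authors' whole read counts. The deposited normalized signal values of each sample list 1190 genes and are counts multiplied by 1 factor per sample, and 100% came within 0.01 of a whole read after division by it.

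Symbols came from a table of Ensembl identifiers (779 of 1780 matched), positions from RefSeq by symbol. By edgeR's filterByExpr, genes were kept with about 10 reads, scaled for depth, in at least 3 libraries and a total of at least 15. These were 807 with 99.9% of reads, tested in edgeR 4.0.16 (R 4.3.3, with TMM and robust quasi-likelihood) with Benjamini-Hochberg adjustment. SE and intervals come from that fit, counting errors cover sampling of reads only, and simulated counts were used to check the test. Alternatives were other scalings, no filter, DESeq2 1.42.0, limma 3.58.1 voom, the replicate number as a block, and each library left out. Log2 CPM used a prior count of 2.

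The 5 genes and the lists were chosen with earlier results of these data known. Named genes were the 5, called genes of the signalling lists, each list's most abundant and most changed gene, up to 3 neighbours a side within 1 Mb, the 2 most similar genes, PEG10 and SGCE; PIK3C2B, TMPRSS13, ATF3, IER5, POU2F3, the other cell markers and genes with too few reads were named to account for their lists. Some genes that the rule or a list selects are not reported here. Trophoblast markers (2 of 11 in the table) were PEG10 and PLET1, with sums of 25315 to 34092 CPM in controls and 10.8 to 29.1 CPM in parthenotes. These sums are mostly PEG10, the paternally expressed gene used to check the labels, so they do not describe trophoblast cells. PLET1 had 12 to 20 reads per library in controls and 1 to 5 in parthenotes, a log2 fold change of -2.70 (edgeR adjusted p = 0.0264). No 2 libraries of a group agreed within sampling noise. Over the tested genes, deviations from group means correlated at 0.365, 0.272 and 0.147 between samples numbered 1, 2 and 3 in both groups, and control 3 with parthenote 2, of different numbers, at 0.145. Same-number values all exceeded 0.1, but so did this pair of different numbers. Deviations within a group balance out, so these correlations are not independent of one another. They do not establish a pairing, which the labels do not state, and the block was kept as an alternative only. Values in the report are from the fit without the block unless it is named.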

Additional observations from a re-analysis of the deposited data

How the results depend on the processing

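The 5 genes were not called under any of the 13 alternatives, which were the 7 other scalings, filters and tests and the 6 fits with 1 library left out. HGF stayed below 0 and GAB2 and ABL2 above 0 in all 13. GRB10 turned to -0.0044 with library totals as the only scaling and to -0.0012 without a filter on low counts, and the cause was not tested. With 1 library left out the log2 fold change ran from -0.0414 to 0.0765 for GRB10, from -0.168 to 0.0556 for EGFR, from -0.27 to -0.17 for HGF, from 0.04 to 0.24 for GAB2 and from 0.21 to 0.66 for ABL2. The number of called genes among the other signalling genes ran from 1 to 2 in those fits, the second being PTGS2 without parthenote 1. With the replicate number as a block, which pairs the samples, the log2 fold change of GRB10 was 0.02, that of EGFR -0.02 and that of ABL2 0.48 (adjusted p = 0.197 in edgeR's test, interval 0.01 to 0.95), and the block changed no call of the 5 genes or of the signalling genes. Over all tested genes the count of calls was 42, but 17 or 18 when control 2 or control 3 was left out, 26 or 22 when parthenote 2 or parthenote 3 was, and 62 in DESeq2. Of the calls 13 were higher and 29 lower, against 5 and 27 when only library totals set the scale. With 3 embryos a group, a change of any size inside the interval given for each of the 5 genes remained possible.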

Other observations

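The authors' deposited normalized values gave the same order of the genes by difference as the scaled counts. The log2 ratio of the group means, parthenote over control, was -0.19 for HGF, -0.01 for EGFR, 0.04 for GRB10, 0.19 for GAB2 and 0.51 for ABL2. GRB10 was at 1431 ± 112 normalized reads in controls and 1468 ± 43.1 in parthenotes (SD, n = 3 each), and ABL2 at 595 ± 153 and 846 ± 250. No test was run on these values. They are the same counts multiplied by 1 factor per sample, so the like order is not independent support.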
